A study of Mus musculus with 2 samples.

Results

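The clustered histone genes comprise the 67 genes, of 21896 in the files, whose symbols start with Hist1h, Hist2h, Hist3h or Hist4h, and they were taken by symbol alone. They were grouped by the histone they encode and by cluster, with 53 genes in the Hist1 cluster on chromosome 13, 10 in the Hist2 cluster on chromosome 3, 3 in the Hist3 cluster on chromosome 11 and 1 in the Hist4 cluster on chromosome 6. By type, 6 encode the linker histone H1, 18 encode H2A, 19 encode H2B, 12 encode H3 and 12 encode H4. The group was picked for description after the values of these libraries were known, so the direction of its difference is described here and was not tested.

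RNA came from VZ–SVZ tissue (the germinal layers that line the ventricle) of C57/BL6 embryonic cortex at E13.5, with 1 library per genotype. The embryos of the control library were Rcor2fl/fl, with both Rcor2 alleles floxed, and the Rcor2cko embryos carried in addition the NesCre transgene, in which Nestin drives Cre recombinase. Rcor2 is a transcriptional co-repressor of the CoREST family. Nestin-driven Cre acts throughout the neural lineage and not in the cortex alone, and the number of embryos per library is not given in the sources used here. Both libraries came from the same crosses and kits. E15.5 was not analysed here.

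The core histones H2A, H2B, H3 and H4 form the nucleosome, and H1 binds the linker DNA between nucleosomes. Most clustered histone genes lack introns and are transcribed in S phase, when new DNA must be packaged, so their mRNAs are abundant in dividing cells such as the radial glia of the VZ. Their mature mRNAs are unusual in ending not in a poly(A) tail but shortly after a conserved stem-loop, which Slbp (stem-loop binding protein) binds and which the U7 snRNP helps to process. Some of these genes can also give longer, polyadenylated mRNAs. The libraries were made with a kit for mRNA, which selects poly(A) tails, so mature histone mRNAs without a tail are expected to be captured poorly and the values below are not total histone mRNA.

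The stem-loop is shown for genes on which the results turn, since gene models are grouped below by where they end relative to it. It was searched for in the 100 nt after the stop codon in the mm9 genome, as a stem of 6 nt that starts with GG, a loop of 4 nt that starts with TT and the reverse complement of the stem. It was found in 53 of the 58 members with an annotated stop codon, against 66 (0.302%) of 21838 coding genes. This background count includes the members, which make up most of it. Each line gives 5 nt on either side, with the stem and loop in capitals.
Hist3h2ba, an H2B gene: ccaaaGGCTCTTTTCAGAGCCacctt
Hist3h2a, an H2A gene: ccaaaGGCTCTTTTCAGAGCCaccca
Hist1h1c, an H1 gene: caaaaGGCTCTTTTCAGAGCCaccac
Hist1h4i, an H4 gene: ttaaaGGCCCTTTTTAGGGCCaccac
Hist1h3c, an H3 gene: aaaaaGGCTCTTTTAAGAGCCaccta
Hist1h3a, an H3 gene: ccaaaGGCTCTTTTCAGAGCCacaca
Hist1h2ag, an H2A gene: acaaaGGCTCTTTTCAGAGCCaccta
The form shared by Hist3h2ba, Hist3h2a, Hist1h1c, Hist1h3a and Hist1h2ag was the most frequent, in 32 members. The form of Hist1h3c was present in 9 members and that of Hist1h4i in 2. No stem-loop of this form was found after the stop codon of Hist2h2be, Hist1h2an, Hist1h2bp, Hist1h3g and Hist1h4a. Genes that are no members also hold it, among them H2afx, which encodes the variant H2A.X, and the expressed genes Gltscr1, Rps6ka2 and Ttc14, which encode no histone.

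Where a pair of values is given for a gene, the control library comes first and the Rcor2cko library second. Levels are given in FPKM, fragments scaled to transcript length and to the library's total. The files were read as FPKM without counts, but for genes with 1 transcript the number of fragments behind an FPKM value can be worked back from its size. Fragments could be recovered for 59 of the 67 members, with a scaling total of 18837583 for the control library and 25473254 for the Rcor2cko library. At this depth 3 fragments, taken as the smallest level that can be read, correspond to 1.31 and 1.01 FPKM for the shortest models of 312 nt. Pooled fragments are compared as the ratio of fragments per scaling total, Rcor2cko over Rcor2fl/fl, with a 95% exact (Clopper-Pearson) interval. The intervals cover counting error only, and with 1 library per genotype they compare these libraries and not the genotypes. In bulk RNA, fewer S-phase cells and less histone mRNA per cell cannot be told apart.

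Rcor2 itself was at 90.6 FPKM in the control and 55.7 in the Rcor2cko library, a gene-level value that does not resolve the floxed exons. Markers of radial glia, intermediate progenitors and cortical neurons were expressed in both libraries, and their median log2 changes were between -0.08 and 0.02. The libraries also differed in markers of other tissue. All 6 markers of the ventral telencephalon were past 1.5-fold higher in the Rcor2cko library, with a sum of 17.2 against 52.7 FPKM, and the 6 choroid plexus markers summed to 0.771 against 61.7 FPKM. The 9 erythroid markers summed to 528 against 445 FPKM, with 1 of the 7 expressed, the globin Hbb-b1, past 1.5-fold lower at 153 and 97.5 FPKM. Of the 3 expressed microglia markers, Csf1r was past 1.5-fold higher at 2.67 and 4.32 FPKM. The part of these cells in the histone values was not tested.

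Most clustered histone mRNAs were at very low levels in these libraries, and most of those detected were lower in the Rcor2cko library. Of the 67 members, 13 were listed at 0 in both libraries and 54 were detected in at least 1. Of these 54, 40 had a lower and 14 a higher FPKM in the Rcor2cko library. By the same count over all 16463 genes above 0 in a library, 53.1% were lower and 46.9% higher. Pooled over the 59 recovered members, 2982 fragments in the control stood against 3673 in the larger Rcor2cko library, a ratio of 0.911 (95% interval 0.868 to 0.956). This pool was dominated by a few genes of high level, and the genes of low level stood apart from them. The 6 members that reached 5 FPKM in a library pooled to a ratio of 0.931 (0.886 to 0.979), from 2774 and 3494 fragments. The members below 5 FPKM, 53 of them with recovered fragments, pooled to 0.636 (0.518 to 0.781), from 208 and 179 fragments.

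The plot of levels shows every detected member in both libraries.

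**Figure D1:**
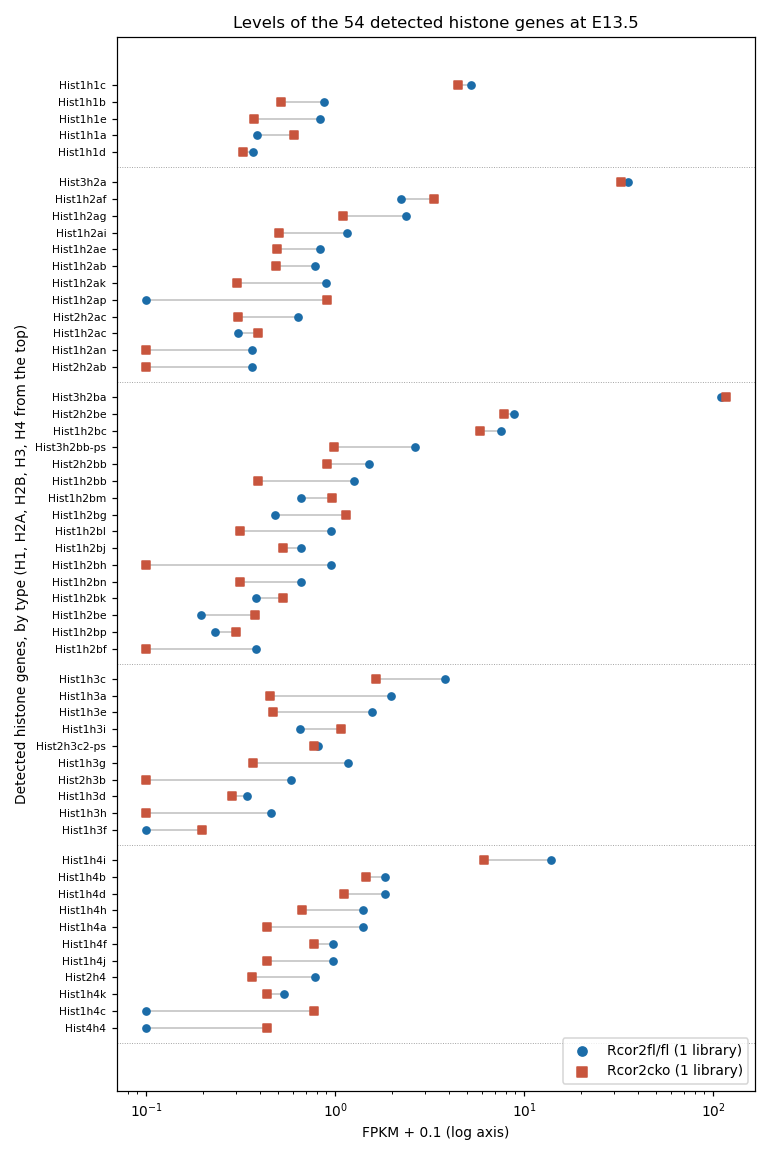
FPKM + 0.1 on a log axis of the 54 detected members, in blocks by histone type, with circles for the control library and squares for the Rcor2cko library, joined by a line. Points at 0.1 are genes listed at 0. Hist3h2ba and Hist3h2a stand far to the right with nearly coinciding points, while most H3 and H4 genes are low with the square to the left of the circle.

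The H2A and H2B genes of the Hist3 cluster carried most of the signal. Hist3h2ba, an H2B gene at chr11:58762413-58763032 on the + strand, was at 110.5 FPKM in the control and 117.1 FPKM in the Rcor2cko library. These levels exceeded those of 96.8% and 97.1% of the genes with at least 1 FPKM in a library. From 887 and 1252 fragments, the log2 ratio was 0.06 (95% interval -0.06 to 0.19), so the libraries did not differ beyond counting error. Hist3h2a, an H2A gene at chr11:58768187-58770176 on the + strand, was at 35.2 and 32.6 FPKM. Its log2 ratio was -0.12 (-0.23 to -0.01), from 1191 and 1485 fragments, a small difference at the edge of counting error. Together with the pseudogene Hist3h2bb-ps, these genes made up 67.1% of the summed FPKM of all members in the control and 76.1% in the Rcor2cko library. Hist3h2ba alone made up 50.01% and 59.2%. The Hist3 cluster as a whole had a pooled ratio of 0.970 (0.916 to 1.03).

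Hist3h2bb-ps, the remaining gene of this cluster, had few fragments and passed the 1 FPKM filter through the control alone, where it was high. It was at 2.54 FPKM in the control and 0.890 in the Rcor2cko library, from 13 and 6 fragments, a log2 ratio of -1.55 (-3.23 to -0.06). It lies on the - strand, 172 nt from the start of Hist3h2a, and the pair is transcribed in opposite directions.

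Of the other clusters, Hist2 was intermediate and was also carried by 1 gene. Hist2h2be, an H2B gene at chr3:96025044-96027661 on the + strand, was at 8.74 FPKM in the control and 7.75 in the Rcor2cko library. Its 399 and 477 fragments gave a log2 ratio of -0.18 (-0.37 to 0.02). It was present in both libraries at like levels, with a gene model of more than 2 kb that ends in a poly(A) signal. All 7 detected Hist2 genes had lower FPKM in the Rcor2cko library, against 53.1% of all genes above 0 in a library. However, Hist2h2ab, Hist2h2ac, Hist2h3b and Hist2h4 had at most 2 fragments in either library, below the smallest level that can be read. Hist2h3c2-ps was nearly equal, at 0.714 and 0.677 FPKM. The cluster's pooled ratio was 0.868 (0.761 to 0.991). Of the Hist2 genes other than Hist2h2be, Hist2h2bb, also an H2B gene, was past 1.5-fold lower, at 1.42 and 0.805 FPKM from 8 and 6 fragments. The remaining Hist2 genes did not reach 1 FPKM in either library. Hist4h4, the only gene of its cluster, was listed at 0 in the control and had 1 fragment in the Rcor2cko library, below the smallest level that can be read.

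The large Hist1 cluster, which holds genes of all 5 types, had the lowest pooled ratio of the clusters. From 466 and 430 fragments the ratio was 0.682 (0.597 to 0.780), and 31 of its 43 detected genes had a lower FPKM in the Rcor2cko library. Over all genes above 0 in a library, 53.1% were lower. The summed FPKM of the cluster was 59.9 in the control and 37.4 in the Rcor2cko library, a log2 ratio of -0.68. For comparison, the log2 ratio of the summed FPKM was -0.41 for Hist2 and 0.02 for Hist3.

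By type, the pooled ratio was lowest for H3 and H4 and closest to 1 for H2B. The pooled ratio was 0.493 (0.325 to 0.740) for H3, from 63 and 42 fragments, and 0.467 (0.343 to 0.633) for H4, from 114 and 72 fragments. It was 0.843 (0.677 to 1.05) for H1, 0.915 (0.849 to 0.987) for H2A and 0.969 (0.904 to 1.04) for H2B. Since the Hist3 cluster holds H2A and H2B genes only, the types were also compared without it. Outside Hist3, H2A and H2B together had a ratio of 0.846 (0.754 to 0.949), from 557 and 637 fragments, against 0.476 (0.373 to 0.606) for H3 and H4 together, from 177 and 114 fragments. The intervals do not overlap, but the H2A and H2B value outside Hist3 still rests mostly on Hist2h2be. The H4 value rested largely on Hist1h4i, without which it was 0.592 (0.312 to 1.11). The H3 value was 0.533 (0.325 to 0.866) without Hist1h3c and 0.566 (0.363 to 0.875) without Hist1h3a.

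**Figure D2:**
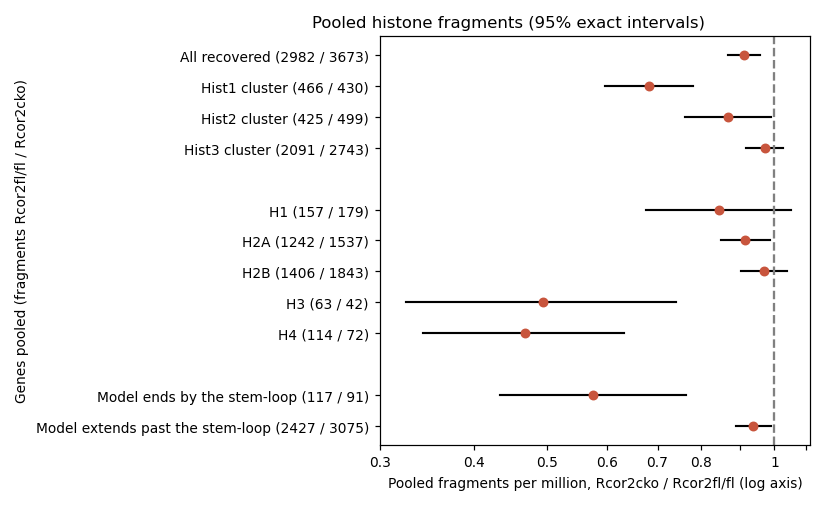
Ratio of pooled fragments divided by the scaling totals, Rcor2cko over Rcor2fl/fl, on a log axis, for clusters, types and gene model classes, with 95% exact counting intervals as bars and the fragments of each library in brackets. The dashed line is an equal level. H3, H4, the Hist1 cluster and the genes whose model ends by the stem-loop lie to the left of it, while Hist3, H1 and H2B have intervals that include it.

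Among the H1 genes, Hist1h1c was the only member to reach 5 FPKM. Hist1h1c, at chr13:23830676-23832236 on the + strand, was at 5.16 FPKM in the control and 4.36 in the Rcor2cko library, with a log2 ratio of -0.25 (-0.60 to 0.10) from 133 and 151 fragments. Its levels did not differ beyond counting error. Hist1h1a, Hist1h1b, Hist1h1d and Hist1h1e stayed below 1 FPKM in both libraries, and 3 of these 4 were lower and Hist1h1a higher in the Rcor2cko library. The remaining H1 gene, Hist1h1t, a linker histone of the testis, was listed at 0 in both libraries.

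Among the H2A genes of the Hist1 cluster, only Hist1h2af, Hist1h2ag and Hist1h2ai reached 1 FPKM, and not all in 1 direction. Hist1h2af was the higher one in Rcor2cko tissue, at 2.12 and 3.24 FPKM from 8 and 16 fragments, a log2 ratio of 0.57 with an interval that includes an equal level. Hist1h2ag was lower, at 2.28 and 1.01 FPKM from 12 and 7 fragments, a log2 ratio of -1.21 (-2.80 to 0.25). Hist1h2ai was at 1.06 and 0.406 FPKM, from 4 and 2 fragments. Each of these 3 differences was within counting error. The proteins of this family are nearly identical, and between 79.9% and 84.6% of the 50-nt windows of these 3 genes recur in other members, so fragments could have been assigned among them.

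Among the H2B genes outside Hist3, Hist1h2bc was second to Hist2h2be. Hist1h2bc, at chr13:23776068-23784349 on the + strand, was at 7.45 FPKM in the control and 5.73 in the Rcor2cko library, from 75 and 77 fragments, a log2 ratio of -0.40 (-0.87 to 0.08). Its deposited model of 728 nt is spliced and ends 7818 nt past the stem-loop in the genome, a distance that includes intron sequence. Whether the stem-loop lies in an exon of this model was not checked. Hist1h2bb was lower in the Rcor2cko library, at 1.16 and 0.293 FPKM from 6 and 2 fragments, and Hist1h2bg was higher, at 0.378 and 1.04 FPKM from 3 and 11 fragments. The log2 ratio of Hist1h2bg was 1.44 (-0.48 to 3.92), and that of Hist1h2bb was -2.02 (-5.36 to 0.46), so neither difference exceeded counting error.

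All 4 H3 genes that reached 1 FPKM were lower in the Rcor2cko library. However, Hist1h3a, Hist1h3e and Hist1h3g reached it in the control alone, so the filter largely set their direction. Hist1h3i, below 1 FPKM in both, was higher, at 0.551 and 0.973 FPKM from 3 and 7 fragments. Of the 10 detected H3 genes, 8 were lower and 2 higher, against 53.1% lower over all genes above 0 in a library. Hist1h3c, at chr13:23836911-23837390 on the - strand, was at 3.71 FPKM in the control and 1.54 in the Rcor2cko library, a log2 ratio of -1.30 (-2.51 to -0.17) from 20 and 11 fragments. Hist1h3a, at chr13:23853722-23854255 on the - strand, was at 1.87 and 0.353 FPKM, a log2 ratio of -2.44 (-4.90 to -0.55) from 12 and 3 fragments. Both intervals exclude an equal level. Hist1h3e was at 1.46 and 0.372 FPKM and Hist1h3g at 1.07 and 0.269 FPKM, each from 6 and 2 fragments, with intervals that include it. The highest H3 gene was thus far below the H2B gene Hist3h2ba on the FPKM scale, although the nucleosome holds equal numbers of both proteins. The replication-independent H3.3 genes, which are polyadenylated and made throughout the cell cycle, were far higher, with H3f3a at 863 FPKM and H3f3b at 414 FPKM in the control.

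H4 has no replacement variant like that of H3, and 1 gene, Hist1h4i, gave most of its signal. Hist1h4i, at chr13:22132685-22133221 on the - strand, was at 13.8 FPKM in the control and 6.07 in the Rcor2cko library. From 89 and 52 fragments, the log2 ratio was -1.21 (-1.73 to -0.70). It was the only member at 5 FPKM or more that was past 1.5-fold. Its rank also differed, above 59.3% of the genes with at least 1 FPKM in the control and above 32.99% in the Rcor2cko library. Of the other H4 genes, Hist1h4h was at 1.31 and 0.566 FPKM from 7 and 4 fragments, Hist1h4d at 1.74 and 1.01 FPKM from 4 and 3 fragments and Hist1h4a at 1.31 and 0.338 FPKM from 3 and 1 fragments. Hist1h4b was within 1.5-fold, at 1.74 and 1.35 FPKM, with 4 fragments in both. These counts are at or near the smallest level that can be read.

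Counting the members past 1.5-fold on the scale of log2(FPKM + 0.1), which understates the change of low genes, 13 were lower, 2 were higher and 6 were within that fold, of the 21 with at least 1 FPKM in a library. Over all 11777 such genes, 1.76% were lower and 3.79% higher. The member median was -1.08 (range -2.12 to 1.26) against -0.03 over all genes. A gene of a few fragments passes the filter through the library in which it is high, so these 21 are not a fair sample of the members, and calls at such levels are frequent in any gene. Among 48 other genes that passed the filter with 30 or fewer recovered fragments over both libraries, 25% were past 1.5-fold lower and 35.4% higher. Among other genes of 100 to 200 fragments, the range that holds Hist1h4i, 5.09% were past 1.5-fold lower and 14% higher.

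**Figure D3:**
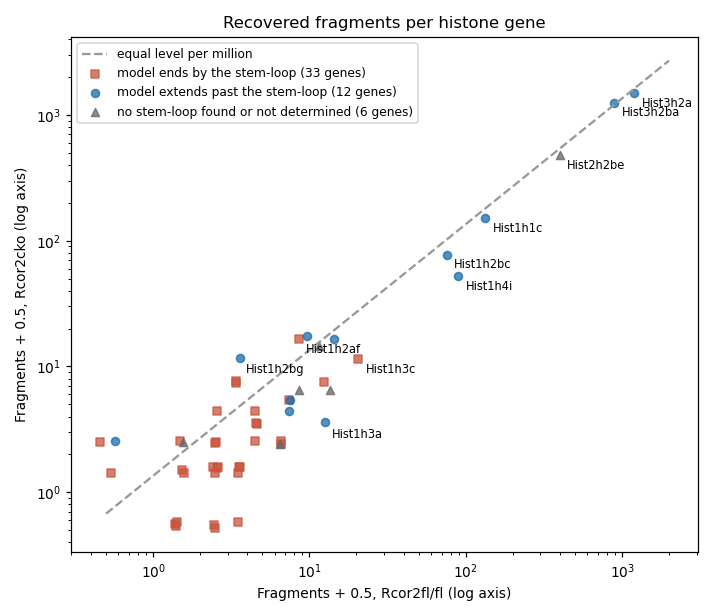
Recovered fragments + 0.5 per member, control library on the x axis and Rcor2cko library on the y axis, both log axes, with marker shape and colour by gene model class and points shifted slightly to separate equal values. The dashed line is an equal level after division by the scaling totals. Hist3h2ba, Hist3h2a, Hist2h2be and Hist1h1c lie on or near the line, Hist1h4i and Hist1h3c below it, and most genes under 10 fragments lie below it.

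The members were also grouped by where their deposited model ends. In 38 members the model ends by the stem-loop, meaning before, at or within 20 nt past it. Of these models, 30 cover only the coding sequence and so stop short of the stem-loop, where the mature mRNA would not end. The other 8 run on past the stop codon. For 2 of those with coding sequence only, Hist1h2an and Hist1h4a, no stem-loop was found. None of these 38 models, of 312 to 747 nt, holds the poly(A) signal AATAAA in its last 40 nt, and none of the genes exceeded 3.71 FPKM in either library. In 13 members the model runs further past the stem-loop by genomic position, and AATAAA is present at the model end in 5 of these. Of the 6 members that reached 5 FPKM, Hist3h2ba, Hist3h2a, Hist1h4i, Hist1h2bc and Hist1h1c belong to these 13, while in Hist2h2be no stem-loop was found. The other 8 of the 13 were as low as the 38, with none above 1.87 FPKM. The median FPKM was 1.31 in the control and 0.566 in Rcor2cko for the 13, against 0.564 and 0.338 for the 38.

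The genes whose models end by the stem-loop were lower in the Rcor2cko library. Of the 33 detected, 26 had a lower and 7 a higher FPKM, against 53.1% lower over all genes above 0 in a library. Their pooled fragments were 117 in the control and 91 in the Rcor2cko library, a ratio of 0.575 (0.432 to 0.763). Leaving out the 3 genes with most fragments one at a time, the ratio was 0.610 without Hist1h3c, 0.509 without Hist1h2af and 0.592 without Hist1h2ag. The ratio was below 1 in every type, at 0.887 for H1, 0.634 for H2A, 0.444 for H2B, 0.457 for H3 and 0.657 for H4, although only the intervals of H2B (0.198 to 0.953) and H3 (0.252 to 0.810) exclude 1. Within this class H3 and H4 thus did not stand apart from H2A and H2B, and the contrast by type given above rests on genes of higher level. Of the 12 detected genes whose models run past the stem-loop, 8 had a lower and 4 a higher FPKM, and the pooled ratio was 0.937 (0.888 to 0.989), from 2427 and 3075 fragments. Most of these fragments were from Hist3h2ba and Hist3h2a, and without both the ratio was 0.716 (0.615 to 0.834), from 349 and 338 fragments. The 8 genes of this class under 5 FPKM had a ratio of 0.825 (0.557 to 1.22), from 52 and 58 fragments. These intervals without the Hist3 genes overlap that of the genes whose models end by the stem-loop, which does not show the classes to be equal. The ratio was 0.875 (0.818 to 0.937) without Hist3h2ba alone and 0.951 (0.883 to 1.03) without Hist3h2a alone, and neither interval overlaps it. Intervals thus stood apart only with Hist3h2ba or Hist3h2a in the pool.

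Short transcripts of low level did not show this difference in general. Pooled over 281 other genes with 1 transcript of 300 to 800 nt, above 0 in a library and under 5 FPKM in both, fragments were 1574 in the control and 2290 in the Rcor2cko library, a ratio of 1.08 (1.01 to 1.15). Of 283 such genes, 42% had a lower FPKM in the Rcor2cko library. Members with AATAAA at the model end, 7 genes, pooled to 0.967 (0.904 to 1.03), and the 49 without it to 0.853 (0.795 to 0.916). Each pool rested mostly on 1 Hist3 gene. Hist3h2ba gave 887 and 1252 of the 1502 and 1964 fragments with AATAAA. Hist3h2a gave 1191 and 1485 of the 1469 and 1695 fragments without it. A link between the signal and the change can therefore not be read from these pools.

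A list of RNAs other than histone mRNAs, taken to lack a poly(A) tail, was looked at beside these values. Of 10 listed genes of this kind in the files, 6 reached 1 FPKM and 1 was past 1.5-fold. Rmrp, the RNA of the RNase MRP ribonucleoprotein, was at 63.5 FPKM in the control and 19.4 in the Rcor2cko library, a log2(FPKM + 0.1) change of -1.71. None of the other 5 was past 1.5-fold. Rnu7, the symbol of the U7 snRNA that acts in histone mRNA processing, was at 1.54 and 1.06 FPKM. Its listed model of 3034 nt is far longer than an snRNA, so this value was not read as a level of U7. Terc, the telomerase RNA, was at 1.04 and 0.795 FPKM, from 4 fragments in both, too few to tell its change from that of Rmrp. Rpph1, the RNA of RNase P, was at 4.65 and 4.69 FPKM, and Malat1, a nuclear RNA with a triple-helical 3′ end, at 186 and 200 FPKM. Neat1, another nuclear RNA, was at 1.03 and 1.11 FPKM over a listed model of 3177 nt. Whether the form of Neat1 measured here lacks a tail was not checked. How completely RNAs without a tail were removed from each library was not tested.

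The genes that handle histones and their mRNAs did not show the difference. Of 25 expressed genes for the 3′ processing and regulation of histone mRNA, none was past 1.5-fold and the median log2 change was -0.02. Slbp was at 28.1 FPKM in the control and 28.9 in the Rcor2cko library. The highest of the list were the core spliceosomal proteins Snrpd3, at 131 and 133 FPKM, and Snrpb, at 108 and 99.7 FPKM, and Srrt, which acts with the cap-binding complex, at 52.9 and 47.5 FPKM. Of 27 histone chaperones and modifiers of new histones, none was past 1.5-fold, with a median of -0.07. The highest were Npm1, at 416 and 386 FPKM, Nap1l1, at 228 and 212 FPKM, and Set, at 186 and 164 FPKM, all of which bind histones.

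Genes of S phase, when the clustered histone genes are transcribed, were near equal in level, though most were slightly lower in the Rcor2cko library. Of 45 such genes, none was past 1.5-fold, 33 were below 0 and the median log2 change was -0.09. Over all genes above 0 in a library, a wider set that includes genes under 1 FPKM, 53.1% were lower. The share lower among genes with at least 1 FPKM was not counted, but their median was -0.03. Pcna, the sliding clamp of DNA polymerase, was at 135 and 134.8 FPKM, Mcm7, of the replicative helicase, at 72.7 and 68.5 FPKM, and Ccna2, the cyclin of S phase and G2, at 43.4 and 38.9 FPKM. The 7 proliferation markers found had a median of -0.19, with 6 below 0 and none past 1.5-fold.

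The replication-independent variants, whose mRNAs are polyadenylated, were also within 1.5-fold. Of 11 that reached 1 FPKM, none was past it, and the median was -0.03. The 3 highest were H3f3a, which encodes H3.3, at 863 and 965 FPKM, H2afz, which encodes H2A.Z, at 512 and 492 FPKM, and H3f3b at 414 and 474 FPKM. H2afx, which makes both a stem-loop and a polyadenylated mRNA, was the lowest of the list in change, at 70.2 and 53.6 FPKM, a log2 change of -0.39.

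**Figure D4:**
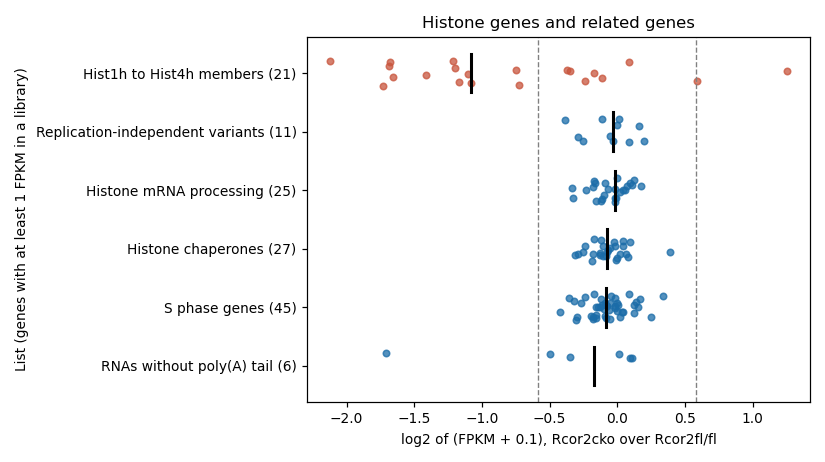
Log2 of (FPKM + 0.1), Rcor2cko over Rcor2fl/fl, for members and 5 lists of related genes with at least 1 FPKM in a library, with 1 point per gene, black lines at the medians, dashed lines at 1.5-fold and points spread vertically for display. The 21 members reach from -2.12 to 1.26 with a median of -1.08, while in the lists only Rmrp is past 1.5-fold. Of the 21, 15 were under 5 FPKM in both libraries, where few fragments and the filter bear on the change. The 6 at 5 FPKM or more had a median of -0.21, with 1 past 1.5-fold. The members and the lists were not matched in level.

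H2A and H2B genes often lie head to head and share the DNA between their starts. Of such neighbours transcribed in opposite directions there were 12 pairs, in all but 1 of which an H2A gene faces an H2B gene. Hist1h2ae had 7 fragments in the control and 5 in the Rcor2cko library while its neighbour Hist1h2bg had 3 and 11. Hist1h2ac had 9 and 17 and Hist1h2bc had 75 and 77. Hist2h2ac had 2 and 1, both below the smallest level that can be read, while Hist2h2be had 399 and 477. In the pair described above, Hist3h2bb-ps had 13 and 6 while Hist3h2a had 1191 and 1485. The difference in change between partners was not tested. The sequence between Hist1h2ae and Hist1h2bg is shown because Hist1h2bg was the member with the highest log2 change among those with at least 1 FPKM in a library. It spans chr13:23663090-23663268 of mm9, is printed on the + strand, which is the strand of Hist1h2bg, and has in capitals CCAAT on either strand (read as ATTGG on the other), the TATA box TATAAA near the start of Hist1h2bg, and ATTTGCA before it.
Hist1h2ae to Hist1h2bg: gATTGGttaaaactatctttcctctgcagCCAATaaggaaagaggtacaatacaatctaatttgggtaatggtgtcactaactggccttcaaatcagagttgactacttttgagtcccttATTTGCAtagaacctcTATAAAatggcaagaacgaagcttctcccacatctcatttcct
ATTTGCA is part of the octamer bound by POU factors such as Oct1, which is known to act at H2B promoters, and CCAAT is bound by NF-Y.

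The same motifs were counted on both strands in the 250 nt before the start of 60 members found in RefSeq (GRCm38.p6). CCAAT was present in 50 of the 60, against 33.8% of 32851 windows, and these were all 6 H1, all 17 H2A, all 16 H2B, 8 of 10 H3 and 3 of 11 H4 genes. TATAAA was present in 28, against 12.4% of windows. ATTTGCA was present in 13, against 3.56%, and these were 7 H2A and 6 H2B genes. The windows of several members overlap, since neighbours share them.

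The members listed at 0 were mostly those that cannot be told apart by sequence. Of the 13, 10 share at least 90% of their 50-nt windows with other members, among them Hist1h2ad, Hist1h2ao, Hist1h3b, Hist2h2aa1, Hist2h2aa2 and Hist2h3c1. Only 3 other members share as much. The remaining 3 at 0 were Hist1h1t, Hist1h2aa and Hist1h2ba, histone genes known from the testis. A further 4 members were at 0 in the control alone and 6 in the Rcor2cko library alone, and those with recovered fragments had at most 3 in the other library. In all, 38 members share more than 50% of their windows with other members, and for these the assignment of fragments between near-identical copies is uncertain, which a sum over the type or cluster avoids in part.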

How the data were processed

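RNA was extracted with RNeasy columns and libraries were made with a KAPA Stranded mRNA-Seq kit. The submitters' processing notes name TopHat 1.3.3, Cufflinks 1.2.0 and mm9, while the methods of the paper name a later TopHat and Cuffdiff. The authors deposited FPKM values with interval bounds, for 27641 transcript rows (Rcor2fl/fl) and 21896 gene rows (Rcor2cko).

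Rows of a gene were summed. Members were listed with earlier results of these data known, as were the lists. Members at 5 FPKM or more, or at 1 FPKM or more and past 1.5-fold, were named, as were the 3 highest of each list; others were named for position, model or level 0 after their values were seen. Log2 changes used a pseudocount of 0.1 FPKM. An effective-length model (mean fragment 190.9 and 197.3 nt) fitted on genes with 1 transcript of at least 300 nt turned FPKM into fragments, of which 99.2% and 99.4% of values up to 100 were within 0.1 of a whole number. On data simulated with counting error alone, 95.5% of 200 known folds were inside the 95% intervals. These folds were all placed in genes with more expected fragments than most members have. The intervals of genes with few fragments were thus not checked in this way. Gene models came from GENCODE vM1 and the genome from NCBIM37 (mm9), with 60 of 67 members matched. Shared sequence was counted in windows of 50 nt. Alternatives covered pseudocount, scaling, filters, fold, transcript rows and status. Python 3.11.15, numpy 2.4.6, pandas 2.3.3, scipy 1.17.1 and matplotlib 3.10.9 were used.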

Additional observations from a re-analysis of the deposited data

How the results depend on the processing

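No paired analysis was possible because each genotype has a lone library, which also leaves every difference without a replicate check. The counts of members past 1.5-fold depended on the filter and the pseudocount. The number higher, 2 as reported, was 0 with a pseudocount of 1 FPKM, 9 with no filter, 1 where both libraries had to reach 1 FPKM, 0 where 1 library had to reach 5 FPKM, 1 past 2-fold and 0 where the deposited 95% FPKM intervals must not overlap. The number lower, 13 as reported, was 29 with no filter, 4 where both had to reach 1 FPKM, 1 where 1 had to reach 5 FPKM and 2 with intervals that do not overlap. Members counted were 67 with no filter, 11 where both had to reach 1 FPKM and 6 at 5 FPKM. Over all genes, 5.88% were higher and 3.07% lower with no filter. These shares were 2.31% and 1.13% where both had to reach 1 FPKM, and 1.59% and 0.79% at 5 FPKM. They were 2.06% and 0.849% with a pseudocount of 1 FPKM, and 1.38% and 0.526% past 2-fold. With intervals that do not overlap they were 1.83% and 0.654%. The median over members, -1.08 as reported, was -0.21 with at least 5 FPKM, -0.29 with no filter, -0.35 where both libraries had to reach 1 FPKM and -0.55 with a pseudocount of 1 FPKM. Without its highest gene, the log2 ratio of the summed FPKM was -0.45 for all members and -0.43 for H2B (both without Hist3h2ba), -0.37 for H2A (without Hist3h2a), -1.07 for Hist2 (without Hist2h2be) and -0.17 for Hist3 (without Hist3h2ba). The pooled ratio of genes whose models run past the stem-loop was 0.875 without Hist3h2ba and 0.716 without both Hist3h2ba and Hist3h2a, alternatives chosen after seeing the data. With the highest transcript row per gene, 2 genes for histone mRNA processing were higher and the list's median was 0.044. This setting lowers control values alone, since only the control library was deposited as transcript rows. Under it 10.3% of all 11767 genes were higher, against 3.79% as reported, so the 2 are not read as a result. With no filter, 1 RNA without a poly(A) tail was higher. Of the other 229 values for counts, medians, sums and pooled ratios, and the 120 for named genes, none changed direction except those close to 0. Median and upper-quartile scaling shift log2 values by 0.04 and 0.03, and turned the log2 ratio of summed H2B FPKM to 0.03 and the median of the processing list to 0.02 and 0.01, while median scaling turned the median of the variants to 0.00. With both libraries at 1 FPKM or more, the median of the list of RNAs taken to lack a tail was 0.01. Depth limits the short models most, since 3 fragments stand for 1.31 and 1.01 FPKM at 312 nt but for 0.0882 and 0.0654 FPKM at 2000 nt.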
